A study of Homo sapiens with 4 samples.

Results

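PTK2, BCAR1, CRK, VCL and CAPN2, which encode scaffold and turnover proteins of focal adhesions, were examined by qRT-PCR in cells that overexpress the phosphatase PRL-1. They were selected by gene symbol, 5 of the 184 target genes on the panel, each with 1 assay. The authors chose the panel's genes for changes in their microarray or proteomic data, or for reported roles in integrin signaling, the cytoskeleton or motility. Shares and medians of the panel are therefore not those of a neutral set of genes. All 5 transcripts were more abundant in both HEK293-PRL-1 samples than in either HEK293-vector sample relative to 18S rRNA. The same held for 69.0% of the 174 assays tested. CRK rose 8.50-fold, PTK2 7.93-fold, CAPN2 5.97-fold and VCL 2.75-fold. The estimate for BCAR1 was 1.63-fold and did not pass the test. By that test 58.6% of all assays were higher. The differences among the 5 genes and from other adhesion genes, which need no reference gene, are therefore given as well.

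Focal adhesions are protein plaques that form where integrins bind extracellular matrix, and they connect the receptors to actin filaments. Focal adhesion kinase (FAK, encoded by PTK2) is recruited to the plaque and, with Src, phosphorylates the docking protein p130Cas (BCAR1). Phosphorylated p130Cas binds the adaptor CRK, which brings in DOCK1 to activate the GTPase RAC1 and promote protrusion. Vinculin (VCL) joins talin to actin and strengthens the plaque, whereas calpain 2 (CAPN2), a calcium-dependent protease, cleaves talin and other plaque proteins as adhesions disassemble.

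HEK293 is an established human embryonic kidney line. The HEK293-PRL-1 group (2 samples) carried the plasmid pcDNA4-PRL-1 and the HEK293-vector group (2 samples) the empty pcDNA4 plasmid, both as stable transfectants grown in the same serum-containing medium. The labels name the samples as biological replicates, and whether each line is a single clone is not given in the sources used here. With 1 line per plasmid, PRL-1 and other differences between the lines cannot be told apart, and the p-values measure the spread between these samples only. The samples are called a and b within each group after letters in the deposited table. These letters are not tied to replicate numbers.

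The measure was the threshold cycle (Ct), the PCR cycle at which the fluorescence of a TaqMan probe passes a set level, so that a lower Ct means more template. PTP4A1, the gene for PRL-1, stood at the ceiling of 40 cycles in all 4 samples, so this assay does not check the overexpression. Of the 184 target assays, 174 were below 40 in at least 1 sample and 165 in all 4. The mean Ct of 18S lay between 13.9 and 14.2, a range of 0.264 cycles. Among markers of other cell types, endothelial SELE was at 40 in every sample and PECAM1 in both HEK293-vector samples, with PECAM1 at 38.5 and 38.7 in HEK293-PRL-1. Endothelial FLT1 was at 34.8 and 34.0 in HEK293-vector and 32.2 and 31.8 in HEK293-PRL-1, and leukocyte ITGB2 lay between 37.5 and 40. The part of these cell types in the results was not tested. The panel holds no set of genes that defines HEK293. In bulk RNA, fewer cells expressing a gene and less RNA per cell cannot be told apart.

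PTK2 encodes FAK, the tyrosine kinase at the head of this group. Its assay (Hs00178587_m1) crossed threshold at 32.9 (sample a) and 32.2 (sample b) cycles in HEK293-vector, and at 30.0 (a) and 29.5 (b) in HEK293-PRL-1. Both HEK293-PRL-1 samples were lower by more than 2 cycles than either vector sample, and the groups did not overlap. After subtraction of the 18S Ct of the same sample, ΔCt was 18.6 ± 0.629 cycles in HEK293-vector and 15.6 ± 0.278 in HEK293-PRL-1 (mean ± SD, n = 2 each). The PTK2 transcript thus rose by 2.99 in log2 units (SE 0.384, 95% CI 1.96 to 4.01, adjusted p = 0.00292 by limma). The 2 vector samples were 0.890 cycles apart, the widest gap within a group among the 5 genes.

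BCAR1 encodes p130Cas, a substrate of FAK and Src that serves as a docking platform and has no catalytic activity. Raw Ct values (Hs00183953_m1) were 28.6 and 28.5 in HEK293-vector and 28.2 and 27.9 in HEK293-PRL-1. The groups lay next to each other without overlap, and on the ΔCt scale a gap of 0.438 cycles separated them. ΔCt was 14.6 ± 0.170 in HEK293-vector and 13.9 ± 0.205 in HEK293-PRL-1. The difference of 0.70 on the log2 scale (SE 0.240, 95% CI 0.06 to 1.34) had an adjusted p of 0.0552 by limma. The interval, here and below, is not adjusted for the number of assays. The threshold was 0.05. The same estimate passed with a variance trend (adjusted p = 0.0324) but not with robust variance (0.0572) or on the assay's own variance (0.102), all from limma.

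CRK is an SH2 and SH3 adaptor that binds phosphorylated p130Cas. Its assay (Hs00180418_m1) crossed threshold at 32.2 and 32.0 cycles in HEK293-vector and at 29.4 and 29.0 in HEK293-PRL-1. The sample pairs were tight and far apart, with 2.73 cycles of ΔCt between the nearest samples of the groups, the widest such separation of the 5 genes. ΔCt was 18.2 ± 0.238 in HEK293-vector and 15.1 ± 0.264 in HEK293-PRL-1. The rise of CRK was 3.09 in log2 units (SE 0.264, 95% CI 2.38 to 3.79, adjusted p = 0.00146 by limma).

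VCL encodes vinculin, the actin-binding plaque protein. Its raw Ct values (Hs00243320_m1) were 28.4 and 27.8 in HEK293-vector and 26.9 and 26.7 in HEK293-PRL-1. The HEK293-PRL-1 samples again had the lower values, with a separation of 1.02 cycles of ΔCt. ΔCt was 14.1 ± 0.472 in HEK293-vector and 12.7 ± 0.145 in HEK293-PRL-1. The rise was 1.46 on the log2 scale (SE 0.310, 95% CI 0.63 to 2.28, adjusted p = 0.0134 by limma). It missed the threshold when HEK293-PRL-1 sample a (adjusted p = 0.0602) or sample b (adjusted p = 0.0883) was left out.

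CAPN2 encodes the large subunit of calpain 2. Raw Ct values (Hs00965092_m1) were 30.4 and 29.7 in HEK293-vector and 27.9 and 27.3 in HEK293-PRL-1. The groups were separated by 1.93 cycles of ΔCt. ΔCt was 16.1 ± 0.551 in HEK293-vector and 13.5 ± 0.363 in HEK293-PRL-1. The rise of CAPN2 was 2.58 in log2 units (SE 0.373, 95% CI 1.58 to 3.57, adjusted p = 0.00410 by limma).

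**Figure D1:**
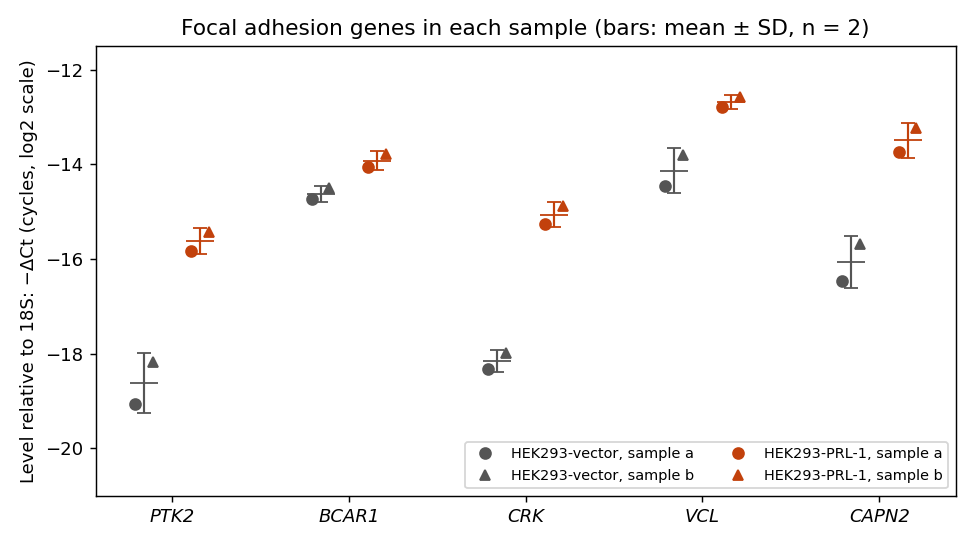
Level of each of the 5 genes relative to 18S in every sample, plotted as the 18S Ct minus the assay's Ct (cycles, log2 scale) for HEK293-vector and HEK293-PRL-1. Circles are samples a and triangles samples b, and horizontal lines with bars are group means ± SD (n = 2). For each gene both HEK293-PRL-1 points lie above both HEK293-vector points, with the narrowest separation for BCAR1 (0.438 cycles) and the widest for CRK (2.73 cycles).

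The stretch around the transcription start is shown for CRK, which had the largest rise of the 5, and for VCL, which had a smaller one; each has a single start window in RefSeq (GRCh38.p14). The windows run from 250 bases before to 50 after the start, on the strand of the gene. Capitals mark the letters of a GC box (GGGCGG) and of a CCAAT box (CCAAT), both searched on either strand. The CRK window is at chr17:1456183-1456482 on the minus strand and the VCL window at chr10:73997866-73998165 on the plus strand.
CRK: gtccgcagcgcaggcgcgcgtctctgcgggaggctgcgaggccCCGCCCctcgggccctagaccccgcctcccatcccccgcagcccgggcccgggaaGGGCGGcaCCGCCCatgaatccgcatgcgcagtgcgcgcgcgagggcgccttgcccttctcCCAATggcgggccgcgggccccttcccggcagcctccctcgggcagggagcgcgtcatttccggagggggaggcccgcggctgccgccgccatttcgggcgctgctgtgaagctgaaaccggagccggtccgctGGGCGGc
VCL: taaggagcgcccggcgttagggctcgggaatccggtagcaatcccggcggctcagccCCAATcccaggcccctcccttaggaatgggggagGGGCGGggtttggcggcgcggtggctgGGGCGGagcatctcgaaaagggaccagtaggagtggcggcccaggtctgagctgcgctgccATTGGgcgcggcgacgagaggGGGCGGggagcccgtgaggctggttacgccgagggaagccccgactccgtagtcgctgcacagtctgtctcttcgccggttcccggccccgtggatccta

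The CRK window was 77% G and C with 4 GC boxes and 1 CCAAT box, and the VCL window 69.3% with 3 GC boxes and 2 CCAAT boxes. GC boxes were in 6 of the 9 windows found for 4 of the 5 genes (66.7%), against 68.9% of 241 windows of panel genes and 45.0% of all 35116 windows. CCAAT occurred in 22.2% of the 9, against 30.3% of panel windows and 34.6% of all. TATAAA was in none of the 9, against 9.96% of panel windows and 11.5% of all. The CArG box, the site of serum response factor, was in 1 of the 9, a CAPN2 window at chr1:223701347-223701646. The other CAPN2 window, at chr1:223712289-223712588, had none. Among panel windows 3.73% held a CArG box, and 1.29% of all. Windows of 1 gene are not independent, since BCAR1 has 5 of the 9. No window was found for PTK2.

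The 5 genes were then set beside the panel. They were chosen with earlier results of these data known. The counts, medians and ranks below therefore describe them and do not test whether they stood out. Higher levels in HEK293-PRL-1 relative to 18S were found for 4 of the 5 genes, while 58.6% of the 174 assays tested rose (102 assays) and 13 fell. Both HEK293-PRL-1 samples were higher than either HEK293-vector sample for 5 of the 5, against 69.0% of all assays. A further 25 assays had groups that did not overlap, with HEK293-PRL-1 lower. The median log2 fold change was 2.58 over the 5 genes and 1.34 over all assays. With 37 and 39 assays above them among the 174, CRK and PTK2 were in the upper part of the panel. CAPN2 had 53 above it, VCL 84 and BCAR1 106, which placed BCAR1 below the panel's median change. With 2 samples against 2, an exact two-sided permutation test of a single gene cannot give a p below 0.333, so the limma p-values depend on a variance estimate pooled over the panel. On each assay's own variance alone CRK was the 1 gene of the 5 that passed, with adjusted p of 0.0614 for PTK2, 0.0680 for CAPN2 and 0.0888 for VCL by the same linear model without pooling (limma's lmFit). Without pooling, 42 of the 174 assays were higher.

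**Figure D2:**
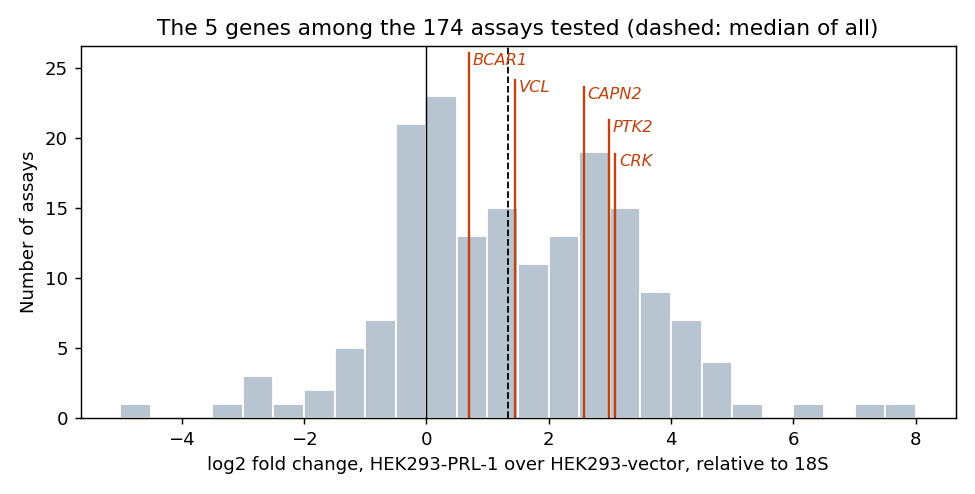
Distribution of the log2 fold change (HEK293-PRL-1 over HEK293-vector, relative to 18S) over the 174 assays tested, with the 5 genes as vertical lines. The panel as a whole is shifted to the right, with a median of 1.34. BCAR1 lies below that median, VCL close to it, and CAPN2, PTK2 and CRK above it.

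The change was also set against the raw Ct across the panel. The 165 assays below 40 in all samples were divided into 4 bins of 41 or 42 assays by mean raw Ct. The median log2 fold change was 0.19 in the bin of most abundant transcripts (Ct 23.5 to 29.2), 1.29 in the next (29.3 to 31.0), 2.99 in the one after it (31.0 to 33.0) and 1.49 in the last (33.1 to 38.9). Spearman's rho between the change and the mean Ct of the 4 samples was 0.253 over these assays, and 0.00446 when the mean Ct of HEK293-PRL-1 was used. The Ct values also enter the change, and the assays share samples and reference wells. BCAR1, VCL and CAPN2 fell in the most abundant bin, CRK in the next and PTK2 in the one after it. The changes of BCAR1, VCL, CAPN2 and CRK were above the median of their bin. The value of PTK2 was itself the median of its bin. The part of template abundance in these changes was not tested.

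A difference in Ct between assays of the same sample does not depend on any reference, and its change between groups shows how far one transcript rose more than another. The change in such a ratio was tested with limma over all 13530 pairs of the 165 assays, and 73.8% of the pairs passed. Of the 10 pairs among the 5 genes, 7 passed, a share close to this background. Pairs that share a gene are not independent, so counts of pairs are not counts of separate tests.

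CRK against BCAR1 had the largest change, that of an adaptor's transcript relative to that of its docking protein. The BCAR1 Ct minus the CRK Ct was -3.58 and -3.48 in HEK293-vector and -1.19 and -1.11 in HEK293-PRL-1. The values of both groups were tight and did not overlap. The ratio of CRK to BCAR1 thus rose by 2.39 on the log2 scale, or 5.22-fold (SE 0.229, 95% CI 1.80 to 2.97, adjusted p = 0.000525 by limma). PTK2 rose 4.87-fold relative to BCAR1 (log2 2.28, SE 0.304, adjusted p = 0.00142 by limma). CAPN2 rose 3.67-fold relative to BCAR1 (log2 1.87, 95% CI 1.14 to 2.61, adjusted p = 0.00242 by limma). The transcripts of the kinase, the adaptor and the protease therefore each gained on that of the docking protein.

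The transcripts of the same 3 genes also gained on that of vinculin. The rise relative to VCL was 3.10-fold for CRK (adjusted p = 0.00248), 2.89-fold for PTK2 (adjusted p = 0.00271) and 2.17-fold for CAPN2 (adjusted p = 0.00938), all by limma. VCL against BCAR1 was 0.75 on the log2 scale (1.69-fold, 95% CI 0.09 to 1.42, adjusted p = 0.0451 by limma). It passed narrowly and was lost when HEK293-vector sample a or either HEK293-PRL-1 sample was left out. CAPN2 against VCL was lost without HEK293-PRL-1 sample a (adjusted p = 0.0515) or sample b (adjusted p = 0.120). Differences among the 3 genes with the largest rises did not pass. CRK minus PTK2 was 0.10 on the log2 scale (95% CI -0.62 to 0.82) with overlapping groups, CRK minus CAPN2 0.51 (95% CI -0.17 to 1.19), and PTK2 minus CAPN2 0.41 (95% CI -0.18 to 1.00). These intervals leave room for a difference in either direction. Without HEK293-vector sample a, CRK minus CAPN2 was 0.73 and passed (adjusted p = 0.0340).

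**Figure D3:**
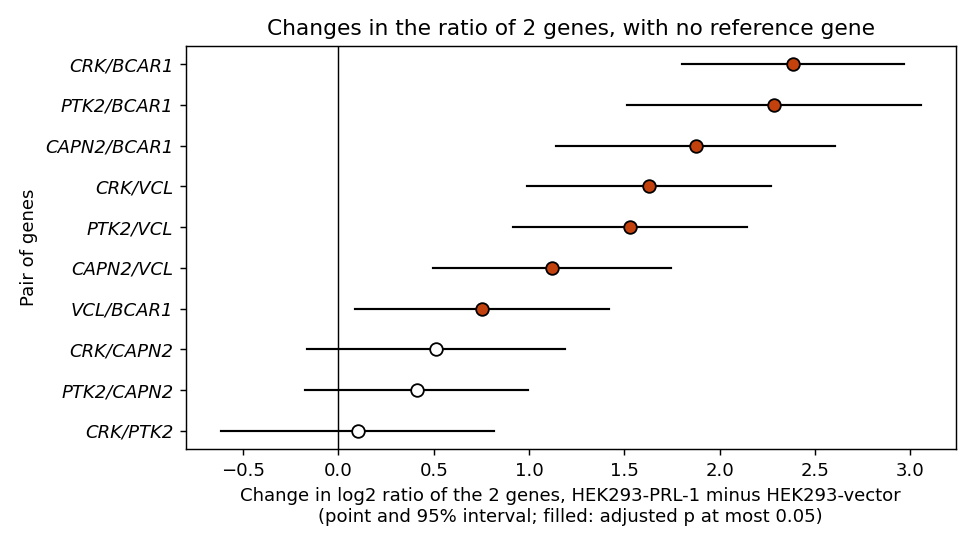
Change in the log2 ratio of pairs of assays between HEK293-vector and HEK293-PRL-1, which is free of the reference gene, with 95% confidence intervals from limma (n = 2 per group). All 10 pairs among the 5 genes are shown, filled where the pair passed. The intervals for CRK, PTK2 and CAPN2 against BCAR1 and VCL lie above 0, whereas those among CRK, PTK2 and CAPN2 include 0.

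Next, 9 other genes of the focal adhesion plaque on the panel were examined, of which 4 rose relative to 18S, none fell and 5 did not pass, against 58.6% of all assays that rose, with a median log2 fold change of 0.31. The count of risers was 1 on each assay's own variance, where 42 of the 174 assays were higher. Fewer of the 9 also rose when either HEK293-PRL-1 sample was left out. The risers were the adaptor NCK1 (3.25, SE 0.215, adjusted p = 0.00117 by limma), the RAC1 exchange factor DOCK1 (2.99, SE 0.386, adjusted p = 0.00292), the adaptor GRB2 (0.97, adjusted p = 0.0206) and the Src-family kinase FYN (0.92, adjusted p = 0.0425). For NCK1 the Ct was 34.8 in each vector sample, and 31.8 and 31.6 in HEK293-PRL-1. DOCK1 had 32.6 and 31.9 in HEK293-vector against 29.7 and 29.1 in HEK293-PRL-1. For both genes the groups were far apart, as they were for CRK and PTK2.

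The remaining plaque genes showed smaller differences relative to 18S, none of which passed. Talin (TLN1), the protein that activates integrins and binds vinculin, had a Ct of 27.2 and 27.4 in the vector samples against 27.4 and 26.9 in HEK293-PRL-1. Paxillin (PXN), the plaque adaptor that binds FAK, vinculin and CRK, had 26.1 in both vector samples and 26.3 and 26.0 in HEK293-PRL-1. For SRC, the kinase partner of FAK, values were 28.2 and 28.5 against 28.7 and 28.4. The raw values of the groups overlapped for all 3 of these genes. Relative to 18S the groups overlapped for PXN and SRC. For TLN1 both HEK293-PRL-1 samples were then higher, by a gap of 0.096 cycles. PTK2B went the other way without overlap, with ΔCt of 19.7 and 19.4 in HEK293-vector against 19.9 and 20.4 in HEK293-PRL-1. The log2 fold changes relative to 18S were 0.31 for TLN1 (adjusted p = 0.323), 0.10 for PXN (0.774), -0.08 for SRC (0.805), -0.09 for CSK, the kinase that restrains Src (0.833), and -0.62 for PTK2B, the FAK relative PYK2 (0.114), all adjusted p by limma.

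**Figure D4:**
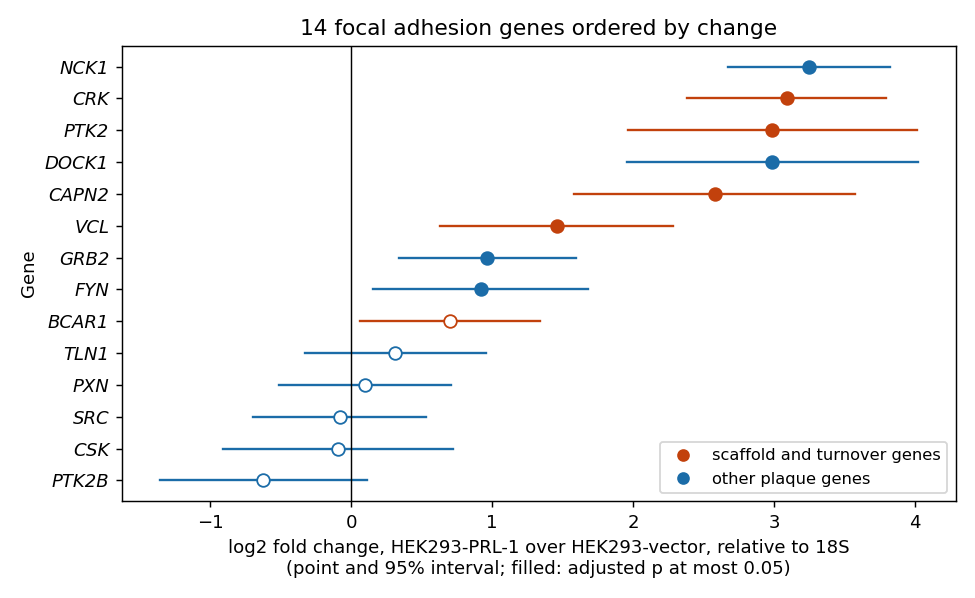
Log2 fold change relative to 18S (HEK293-PRL-1 over HEK293-vector) with 95% confidence intervals from limma for the 5 genes and the other focal adhesion plaque genes of the panel, n = 2 per group. Orange marks the 5 genes and blue the others, filled where the assay passed. CRK, PTK2, DOCK1 and NCK1 lie near 3, while the intervals of PXN, TLN1, SRC, CSK and PTK2B span 0.

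Pairing each gene with those of proteins its product binds or acts on gave 11 reference-free comparisons. Of these 10 passed, against 73.8% of all pairs. The pairs were chosen with earlier results of these data known, and several share a gene. Their count is therefore not a test of the pairs as a set. The ratio of PTK2 to SRC rose 8.39-fold (log2 3.07, SE 0.403, 95% CI 2.05 to 4.09, adjusted p = 0.00137 by limma). Relative to paxillin, PTK2 rose 7.41-fold (adjusted p = 0.000772) and CRK 7.95-fold (adjusted p = 0.000337). Transcripts of FAK and CRK thus increased against that of paxillin. PTK2 also gained on TLN1 (log2 2.67, adjusted p = 0.00160) and GRB2 (log2 2.02, adjusted p = 0.00203). CAPN2 gained 4.80-fold on TLN1, which encodes a calpain substrate (adjusted p = 0.00229).

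VCL gained 2.21-fold on TLN1 (adjusted p = 0.0221) and 2.57-fold on PXN (adjusted p = 0.00651), both by limma. BCAR1 gained 1.72-fold on SRC (adjusted p = 0.0393). Toward NCK1 the direction was opposite, and the ratio of BCAR1 to NCK1 fell by 2.54 on the log2 scale (95% CI -3.13 to -1.96, adjusted p = 0.000465 by limma). CRK and DOCK1, which act in the same p130Cas module, had nearly equal changes, with a difference of 0.10 on the log2 scale (95% CI -0.60 to 0.80, adjusted p = 0.758 by limma).

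Genes upstream and downstream of the plaque were counted in the same way. Over all 174 assays tested, the background for both lists, 58.6% rose and 13 assays fell. Of 14 integrin subunits, 7 rose, 2 fell and 5 did not pass, with a median log2 fold change of 1.23. The largest rise was that of ITGB8, a subunit that pairs with alpha v, at 38.8 and 38.6 cycles in the vector samples against 34.9 and 35.2 in HEK293-PRL-1 (log2 3.79). The largest fall was that of ITGB4, the partner of alpha 6 in hemidesmosomes, which had 33.4 in both vector samples and 36.6 in both HEK293-PRL-1 samples (log2 -2.99, adjusted p = 0.00117 by limma). Among 18 GTPases, regulators and effectors downstream of FAK, p130Cas and CRK, 11 rose, none fell and 7 did not pass, with a median of 1.52. The largest rise was that of ROCK2, a RhoA effector kinase, with 33.4 and 33.6 against 29.2 and 28.9 cycles (log2 4.61, adjusted p = 0.00103 by limma). The medians of both lists lie near that of all assays, 1.34.

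The size, and in part the direction, of these changes depended on the reference. For GAPDH the mean Ct was 21.3 in each vector sample, and 21.0 and 20.8 in HEK293-PRL-1, a difference from 18S of 0.55 in log2 units (SE 0.215, adjusted p = 0.0793 by limma). B2M had 28.4 and 28.1 against 26.0 in both HEK293-PRL-1 samples, and was higher relative to 18S by 2.38 (SE 0.251, adjusted p = 0.00167). The rise of B2M relative to 18S thus lay between those of VCL and CAPN2. The 2 B2M wells of HEK293-vector sample a were at 28.1 and 28.7 cycles.

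Relative to GAPDH, PTK2 was higher by 2.43, CRK by 2.53, CAPN2 by 2.02 and VCL by 0.90 on the log2 scale (adjusted p 0.00336, 0.00111, 0.00512 and 0.0333 by limma). The value for BCAR1 was 0.15 (adjusted p = 0.459). The same 4 genes passed as with 18S, and 49.4% of all assays rose. Relative to B2M none of the 5 rose, against 12.6% of assays, and 1 fell, against 47.1% that fell. The gene that fell was BCAR1 (log2 -1.68, adjusted p = 0.00357 by limma). With B2M limma pooled the variance fully, so that all 5 genes had the same SE of 0.530. Values were 0.61 for PTK2, 0.71 for CRK, 0.20 for CAPN2 and -0.92 for VCL, none of which passed.

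The next reference was the median raw Ct of the 165 assays below 40 in all samples. With it 2 of the 5 rose and 2 fell, where 25.9% of assays rose and 51.7% fell. The median change of the panel was itself -0.85 with this reference. A fall here is therefore not a fall relative to the panel's median change, and VCL lay above that median. CRK (log2 0.90, adjusted p = 0.00848) and PTK2 (0.80, adjusted p = 0.0190) were higher, while BCAR1 (-1.48, adjusted p = 0.00245) and VCL (-0.73, adjusted p = 0.0106) were lower, all by limma. CAPN2 was at 0.39 (adjusted p = 0.129). The other plaque genes moved with the reference as well. With GAPDH 2 of the 9 rose and 2 fell, PTK2B (log2 -1.18, adjusted p = 0.0198) and SRC (-0.63, adjusted p = 0.0379). With B2M none rose and 7 fell, and with the median of assays NCK1 and DOCK1 rose and 7 fell. In both settings TLN1, PXN, SRC, CSK and PTK2B were among those that fell, at -1.87 to -3.00 by limma. The median change of the whole table was 1.34 with 18S, 0.79 when GAPDH was the reference, -1.04 for B2M and -0.85 for the median of assays. The order of the 5 genes by change is the same under each reference, since the reference shifts all of them by the same amount.

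**Figure D5:**
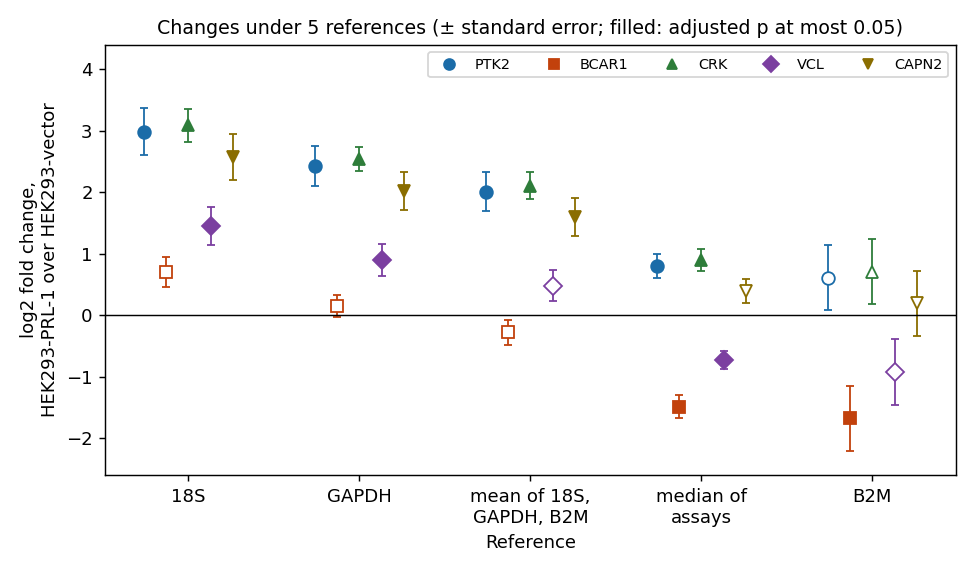
Log2 fold change of the 5 genes (HEK293-PRL-1 over HEK293-vector) under each reference: 18S, GAPDH, B2M, the mean of these 3, and the median of the assays. Bars are standard errors from limma, filled points passed its threshold and open points did not. All 5 genes move together from one reference to the next, and with B2M only BCAR1 passed, below 0.

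Samples a and b differed in the same direction for all 5 genes. In both groups sample b had the higher level relative to 18S, by 0.240 to 0.890 cycles in HEK293-vector and by 0.206 to 0.513 in HEK293-PRL-1. In raw Ct, sample b was lower in both groups for all 5 genes and for 66.1% of the 165 assays, which include the 5. The difference was thus not limited to these 5 genes. Relative to 18S, the gap between samples of a group was smaller than the gap between the groups for each of the 5 genes.

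The assays whose pattern over the 4 samples was most like that of each gene were found by the root mean square difference in Ct, each assay being centred on its own mean, among 164 other assays. For PTK2 they were DOCK1 (0.0460 cycles), MAP3K1 (0.102) and MAP4K4 (0.106), where the median assay was 0.921 cycles away. BCAR1 was closest to PAK1 (0.0492), RAC1 (0.0624) and RELA (0.0809), which had small changes as well. CRK was closest to SHC3 (0.0452), WASL (0.0558) and MAP4K4 (0.113). VCL was closest to DIAPH1 (0.0378), COL14A1 (0.0576) and TAF12 (0.0857). The 3 assays nearest to CAPN2 included PTP4A2 (0.0836) and FLT1 (0.0844). None of the 5 genes was among the 3 nearest assays of another, and MAP4K4 was shared by PTK2 and CRK.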

How the data were processed

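Raw Ct values were analysed for 2 HEK293-vector and 2 HEK293-PRL-1 samples. The authors reverse transcribed DNase-treated total RNA and amplified it with TaqMan assays over 40 cycles on 2 plates of 96 wells per sample. The authors deposited the Ct of each well, without normalization and with values of 40 or more set to 40. A second deposited table holds the authors' fold changes and was not used. A Ct has no read depth, and the number of samples limits the precision.

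ΔCt was the Ct minus the mean of the 2 18S wells of the sample, and the log2 fold change was the drop in mean ΔCt from HEK293-vector to HEK293-PRL-1, with a doubling per cycle assumed. Assays below 40 in at least 1 sample (174) were tested with limma 3.58.1 (lmFit, eBayes, prior df 2.46) under R 4.3.3 and Benjamini-Hochberg adjustment over all of them, threshold 0.05. Ratios of assays were fitted likewise over 13530 pairs. The code of the single-assay fit was checked on simulated data with independent noise and a rise in a part of the assays. That setting is simpler than these data, where assays share samples and reference wells. The fit of ratios was not simulated. Promoter windows and motifs, and figures, were handled in Python 3.11.15 with pandas 2.3.3 and matplotlib 3.10.9.

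The members and the 4 lists were chosen with earlier results of these data known, and so were the 11 partner pairs. Named genes are the 5 genes, 18S, GAPDH, B2M, PTP4A1, the other plaque genes and cell type markers, the largest rise and fall of the integrin and downstream lists, and the 3 assays most like each gene. Alternatives were other references, filters, variance models, an amplification of 1.9 per cycle, the letters as a block, and leaving out each sample. A further reference gene of the plates and 1 gene chosen by this rule are not reported here. The microarray and proteomic data were not analysed here.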

Additional observations from a re-analysis of the deposited data

How the results depend on the processing

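The direction of PTK2, CRK and CAPN2 was the same under every alternative run. With B2M as reference the log2 fold changes were 0.61 for PTK2, 0.71 for CRK, 0.20 for CAPN2, -0.92 for VCL and -1.68 for BCAR1, so that 0 of the 5 rose and 1 fell, with 22 assays higher and 82 lower. With the median of assays, BCAR1 was -1.48, VCL -0.73 and CAPN2 0.39, 2 genes rose and 2 fell, and 45 assays were higher and 90 lower. With the mean of 18S, GAPDH and B2M, BCAR1 was -0.28, VCL 0.48, and 57 assays were lower, with 2 of the 9 other plaque genes higher and 5 lower. With GAPDH 38 assays were lower, against 13 with 18S. BCAR1 kept its estimate of 0.70 and passed when all 184 assays were tested (adjusted p = 0.0499 by limma) and with a variance trend (0.0324). On each assay's own variance only CRK passed, 1 of the 5, and 42 assays were higher; PTK2 (2.99), CAPN2 (2.58) and VCL (1.46) had adjusted p of 0.0614, 0.0680 and 0.0888. Leaving out each sample in turn gave 0.56 to 0.85 for BCAR1 (passing without HEK293-vector sample b, 0.82), 1.12 to 1.79 for VCL, 7 to 19 assays lower (7 without HEK293-PRL-1 sample a), 3 to 5 of the 5 genes higher, and -0.18 to 0.38 for CRK minus PTK2, whose sign turned without HEK293-vector sample b. The lone sample of a group was then assumed to vary like the others. The cause of these shifts was not tested.

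With the letters as a replicate block, BCAR1 kept 0.70 and passed (adjusted p = 0.0299 by limma), giving 5 of the 5 genes higher, and VCL minus BCAR1 (0.75) no longer passed (adjusted p = 0.0638). The block changed no other call on the 5 genes. The gaps between samples a and b correlated with r = 0.0383 between the groups across assays, and the letters were not taken as pairs.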
